A study of Homo sapiens with 12 samples.

Results

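The 101 genes described here are those whose mRNA was higher in LNCaP cells transfected with SRRM4 than with an empty vector, that did not reach a set excess over the empty vector with LSD1+8a, and that were not on a list of 31 already named genes. They were chosen on CPM, a gene's count scaled to a common library total. A gene entered when its mean CPM with SRRM4 was at least 1.4 times that with the empty vector, the lowest SRRM4 library exceeded the highest empty-vector library, the LSD1+8a mean was under 1.2 times the empty-vector mean, and the SRRM4 mean reached 2 CPM. Of 13001 genes, 226 met the ratio, 225 of these the level as well, 189 also the separation of libraries, and 125 all criteria. The cap on LSD1+8a removed 64 genes, the list of names removed 24, and no histone gene was among them. The 101 genes that remained are 0.777% of the table, 91 of them with an official symbol and 10 with a clone name.

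LNCaP clone FGC, a line from a lymph node metastasis of a human prostate cancer, was used at passage 8 for all 12 libraries of polyadenylated RNA. The 4 groups of 3 libraries received, with Lipofectamine 2000 and a change of medium after 6 hours, SRRM4, LSD1, LSD1+8a or, as the control, an empty vector. The LSD1 proteins are encoded by KDM1A, and LSD1+8a is the isoform that keeps microexon 8a. The series title places the work in the question of how SRRM4 makes LSD1+8a in neuroendocrine prostate cancer. Nothing in the labels says that the 3 libraries of a group are separate cultures, so SD, SE and p-values reflect the spread of the libraries alone, and that spread may be technical. With library totals of 10.9 to 13.6 M counts, 1 CPM stood for 10.9 to 13.6 counts.

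SRRM4 is an RNA-binding protein of neurons that makes the splicing machinery keep very short exons, many of them in proteins of synapses, axons and vesicle traffic. In prostate tumours it is known for the shift from an adenocarcinoma to a neuroendocrine form, and among its targets is the transcriptional repressor REST, which holds neuronal genes low in other cells. Genes with a REST site form a known group of neuronal transcripts, and genes activated by p53, the DNA damage response factor, form another. LNCaP cells carry wild-type p53.

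The label under which these genes were collected, rises outside known programs seen only with SRRM4, held in part. Of the 101 genes, 10 (9.90%) are on a list of p53 targets, whose measured genes make up 0.785% of the table, and 5 (4.95%) are on a list of REST targets and neuronal genes, which makes up 0.369%. The rule picks genes higher with SRRM4, and edgeR called 42 of 102 and 21 of 48 measured genes of these lists higher (4.47% of all genes). The lists were chosen with earlier results known, so the shares are descriptions. Counting all 14 pathway lists, 20 genes were on at least 1 list, 18 belonged only to a gene family recognised by its symbol, and 63 to neither. For 12 genes, the SRRM4 libraries overlapped the LSD1 libraries, which the choice had not used, and for 89 all lay above them (13% of all genes). Such an overlap alone is not a rise with LSD1. In LSD1 against the empty vector, edgeR called 0 of the 101 genes (0.0462% of all genes were called higher). Because some of the genes are on these lists, the 101 genes are called here by their rule.

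Promoters of 4 of the 16 genes with the highest SRRM4 ratio are shown as examples of those that hold letters of a REST or p53 motif. Each is 300 bases around the RefSeq transcription start (GRCh38.p14), read 5′ to 3′ along the gene, with the match in capitals. The promoter of TMEM198 (chr2:219543413-219543712, plus strand) holds CAGCACC, the left part of the RE1 motif bound by REST, from 154 bases before the start. MMP24 (chr20:35226440-35226739, plus strand) holds the same letters on the opposite strand, 80 bases before the start. FAXDC2 (chr5:154850554-154850853, minus strand) holds a p53 decamer motif 138 bases before it. TUBB3 (chr16:89921675-89921974, plus strand) holds GGACAG, the right part of RE1, at 170 bases and the AP-1 motif TGANTCA at 21 bases before the start.

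TMEM198: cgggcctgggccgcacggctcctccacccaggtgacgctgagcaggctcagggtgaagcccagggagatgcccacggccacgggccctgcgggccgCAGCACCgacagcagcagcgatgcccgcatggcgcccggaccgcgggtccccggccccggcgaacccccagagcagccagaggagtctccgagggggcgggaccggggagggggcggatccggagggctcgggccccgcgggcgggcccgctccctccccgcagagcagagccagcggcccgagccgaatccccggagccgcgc

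MMP24: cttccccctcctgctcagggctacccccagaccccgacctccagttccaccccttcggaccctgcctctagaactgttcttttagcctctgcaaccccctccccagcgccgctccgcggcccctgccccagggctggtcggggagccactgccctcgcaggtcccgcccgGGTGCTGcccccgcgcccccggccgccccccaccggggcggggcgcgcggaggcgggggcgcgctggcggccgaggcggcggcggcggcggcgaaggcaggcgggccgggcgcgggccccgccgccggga

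FAXDC2: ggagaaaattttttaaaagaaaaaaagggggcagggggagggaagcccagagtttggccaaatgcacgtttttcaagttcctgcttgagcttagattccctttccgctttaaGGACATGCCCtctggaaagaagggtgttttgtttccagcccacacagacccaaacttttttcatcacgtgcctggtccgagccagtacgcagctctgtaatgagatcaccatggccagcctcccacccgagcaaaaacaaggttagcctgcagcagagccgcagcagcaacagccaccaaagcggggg

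TUBB3: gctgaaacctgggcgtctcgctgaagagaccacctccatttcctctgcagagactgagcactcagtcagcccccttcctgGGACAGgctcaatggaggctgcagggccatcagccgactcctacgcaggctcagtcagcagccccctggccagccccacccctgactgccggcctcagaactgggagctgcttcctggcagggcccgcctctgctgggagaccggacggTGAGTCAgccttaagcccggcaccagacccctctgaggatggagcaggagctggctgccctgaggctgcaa

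RefSeq gave such a promoter for 64 of the 101 genes and for 9700 of the table's genes, and all were searched on both strands. CAGCACC occurred in 5 of the 64 (7.81%) and in 7.42% of all promoters, and GGACAG in 14 (21.9%) and 19.9%. The p53 decamer motif occurred in 6 (9.38%, against 5%), TGANTCA in 3 (4.69%, against 4.01%), the CRE core TGACG in 16 (25%, against 35.5%) and TATAAA in 7 (10.9%, against 5.02%). The motifs were searched separately, and 1 promoter can hold several. A match is a string of letters in this window and was not tested as a binding site. All 6 shares are given as descriptions.

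The SRRM4 to empty-vector ratio of the 101 genes ran from 1.403 to 2.797, with a median of 1.56. It was at least 2 for 13 genes, from 1.5 to 2 for 60 and under 1.5 for 28. Most of the genes were weakly transcribed: the empty-vector median was 5.82 CPM, against 30.6 CPM over all genes, and 67 genes (66.3%) were under 10 CPM, against 22.5% of all genes. The empty-vector range was 1.72 to 90.4 CPM. Per transcript length, the empty-vector median was 3.84 TPM (transcript amount scaled to length and library total), against 18.9 TPM for all genes. The plot of ratio against baseline level shows this position at the weak end of the table.

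**Figure D1:**
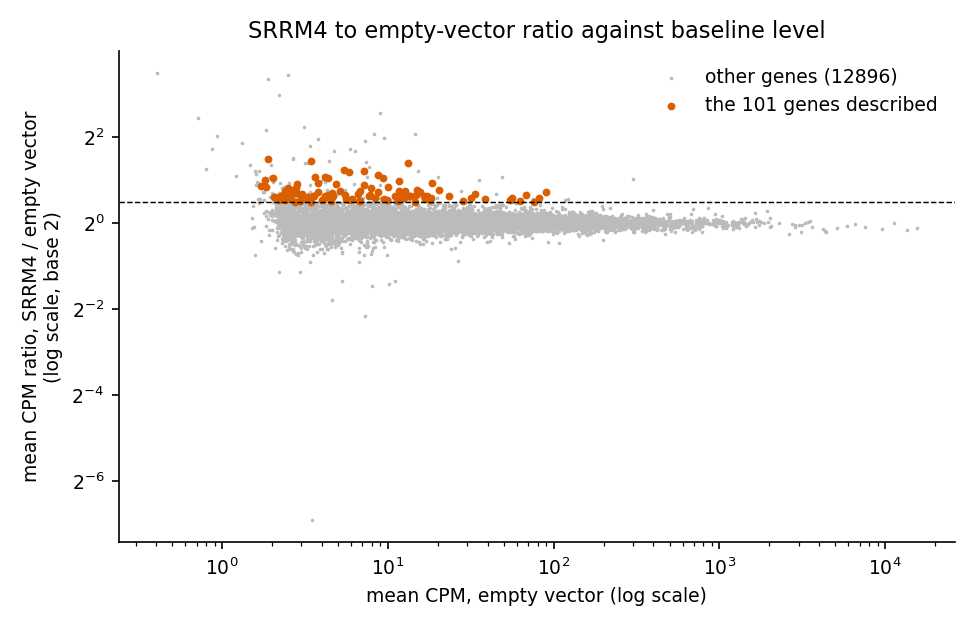
Mean CPM ratio of SRRM4 to the empty vector (log scale, base 2) against mean CPM with the empty vector (log scale) for each gene, with the 101 genes in orange, other genes with a value above 0 in both groups in grey and a dashed line at the ratio of 1.4. The orange points lie between ratios of 1.403 and 2.797 and between 1.72 and 90.4 CPM, toward the weak end of the table.

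edgeR's quasi-likelihood test, with p-values adjusted over all genes by the Benjamini-Hochberg method, called 82 of the 101 genes higher with SRRM4 than with the empty vector at an adjusted p under 0.05 (4.47% of all genes were called higher) and 0 lower (3.22%). Because this contrast chose the genes, the count is a description. The 19 genes not called were NOS1AP, ID1, CSPG4P10, CELF6 and DUSP5 and, named after their values were seen, KANK3, ERAP2, ABCA1, SMPD3, SNAI1, BRSK2, PDE4D, NRG4, RP11-603J24.9, RP11-579D7.4, RP11-574K11.29, RP5-1021I20.4, Z83851.1 and AP003419.11. At an unadjusted p under 0.05 edgeR gave 98 higher (10.8% of all genes) and 0 lower (9.95%). All SRRM4 libraries were above all empty-vector libraries for 15.7% of all genes and below for 10.3%. The authors' deposited table gave an adjusted p under 0.05 for 58 of the genes as higher, against 2.52% of all genes.

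Of the 16 genes with the highest ratios, 3 serve the release of synaptic vesicles. Role groups here and below were formed after the values were seen. Of 54 measured genes with vesicle or SNARE symbols, edgeR called 4 higher with SRRM4 than with the empty vector (4.47% of all genes). It called 1 lower (3.22%), and their median log2 fold change was 0.018, against -0.001 over all genes. STX1A and CPLX1 are among these 54 genes, and NAPB and STON2 are not. NAPB, the brain form of the SNAP protein that takes spent SNARE complexes apart, stood at 11.9, 14.2 and 13.2 CPM in the empty-vector libraries, 14.01, 13.3 and 13.8 in LSD1, 15.4, 13.2 and 14.2 in LSD1+8a and 36.7, 35.0 and 31.8 in SRRM4. Its SRRM4 libraries lay far above the other 9, which overlapped, and its log2 fold change over the empty vector was 1.38 ± 0.08 (SE). STX1A, the syntaxin that forms the SNARE complex at the presynaptic membrane, stood at 5.96, 4.64 and 5.74 CPM in the empty-vector libraries, 5.65, 4.37 and 4.33 in LSD1, 5.39, 4.94 and 4.95 in LSD1+8a and 12.4, 12.9 and 12.8 in SRRM4. Its lowest SRRM4 library was above the highest of any other group, and 2 of its LSD1 libraries were below the empty-vector range. CPLX1, a complexin that clamps SNARE complexes, stood at 11.5, 13.6 and 10.1 CPM in the empty-vector libraries, 13.7, 13.6 and 14.9 in LSD1, 11.6, 11.5 and 11.7 in LSD1+8a and 22.2, 24.9 and 21.5 in SRRM4. The LSD1 libraries of CPLX1 lay in the upper part of its empty-vector range or just above it, and those of LSD1+8a lay within it. These genes and STON2, an adaptor that returns synaptotagmin to vesicles, had ratios of 1.58 to 2.63 and per-length levels of 2.36 to 8.03 TPM with the empty vector and 3.18 to 16.8 TPM with SRRM4.

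The cytoskeleton of neurites contributed a larger group. Of 138 measured genes with keratin or cytoskeletal symbols, edgeR called 15 higher with SRRM4 (4.47% of all genes) and 7 lower (3.22%). Their median log2 fold change over the empty vector was -0.006. TUBB3, TUBB6, TUBA1A and MAP1A are among these 138 genes, and CEP85L, DPYSL4, GPRIN1 and CCDC64 are not. TUBB3, the beta-tubulin used as a neuronal marker, stood at 20.2, 19.3 and 15.4 CPM in the empty-vector libraries, 20.2, 17.7 and 19.02 in LSD1, 20.7, 18.3 and 15.4 in LSD1+8a and 35.1, 35.7 and 34.3 in SRRM4. The 3 SRRM4 libraries differed little from each other and lay above all the others. CEP85L, a centrosomal protein, stood at 4.08, 3.09 and 3.703 CPM in the empty-vector libraries, 3.58, 3.17 and 3.31 in LSD1, 3.52, 3.74 and 3.39 in LSD1+8a and 8.27, 6.76 and 7.82 in SRRM4. TUBB6 and TUBA1A (tubulins), MAP1A (a microtubule-binding protein of dendrites and axons), DPYSL4 (of the collapsin response mediator family), GPRIN1 (a regulator of neurite growth) and CCDC64 (currently BICDL1, a dynein adaptor) joined them. These 8 genes had SRRM4 ratios of 1.56 to 2.101 and LSD1+8a ratios of 0.926 to 1.16. Tubulin genes share long stretches of sequence, so how reads were divided between them is uncertain.

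A channel and proteins of the axon membrane formed another group. Of 71 measured ion channel genes, edgeR called 12 higher with SRRM4 (4.47% of all genes) and 2 lower (3.22%). The median log2 fold change of these channel genes over the empty vector was 0.017. HCN2 is among them, and NFASC and SPTBN4 are not. HCN2, a channel of the current that sets rhythmic firing, stood at 4.86, 3.83 and 4.38 CPM in the empty-vector libraries, 4.3, 4.803 and 4.58 in LSD1, 3.97, 3.74 and 4.38 in LSD1+8a and 9.32, 8.5 and 9.29 in SRRM4. Each of its SRRM4 libraries was above every other library. NFASC, a cell adhesion molecule of the axon initial segment and nodes, stood at 7.14 ± 0.769 CPM (SD, n = 3) with the empty vector and 13.2 ± 0.337 with SRRM4, and SPTBN4, the spectrin beneath it, at 5.15 ± 0.385 and 8.65 ± 0.305. Ratios of the 3 genes were 1.68 to 2.07. Genes with a role in the upkeep of axons or in synaptic signalling had ratios of 1.55 to 1.7: GDAP1 (a mitochondrial protein of peripheral nerve), NMNAT2 (the axonal NAD-synthesising enzyme), MPP3 and NOS1AP (adaptors of cell junctions and of nitric oxide synthase) and CAMK2N2 (an inhibitor of CaM kinase II). GDAP1 went from 20.3 ± 0.416 CPM to 34.5 ± 0.061 CPM, with a log2 fold change of 0.75 ± 0.08 (SE).

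**Figure D2:**
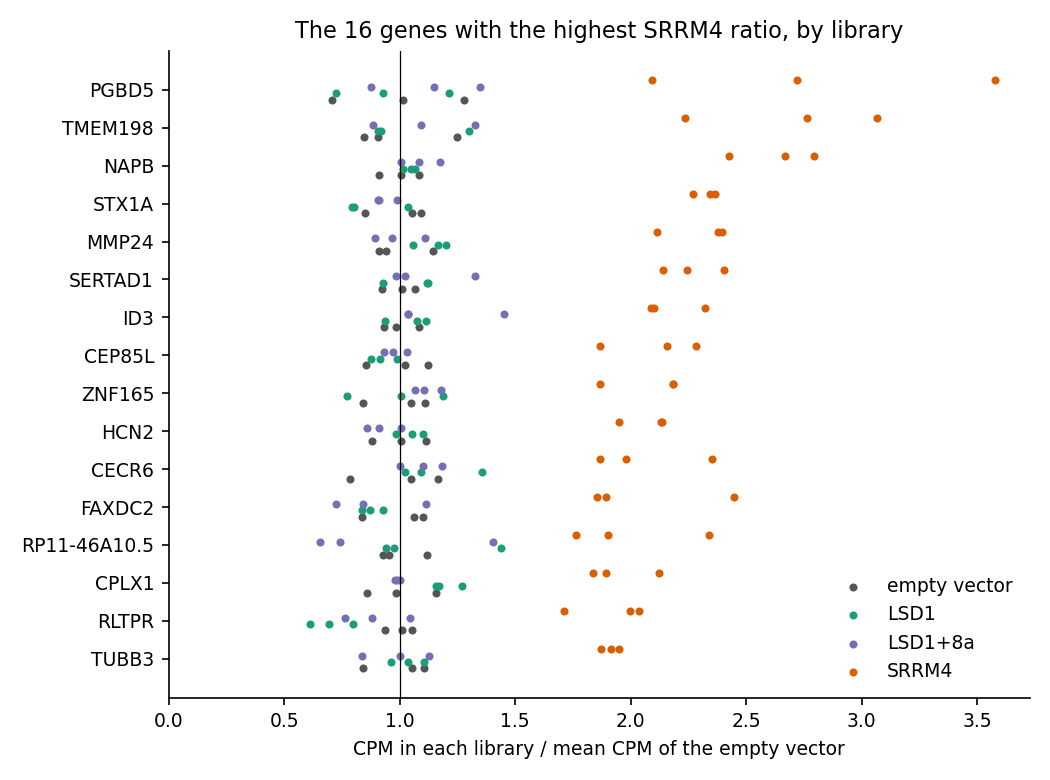
CPM of each of the 12 libraries divided by the mean CPM of the empty-vector libraries, for the 16 genes with the highest SRRM4 ratio (1 point per library, coloured by transfection). All 3 SRRM4 points of each gene lie to the right of its other 9 points, and the LSD1 and LSD1+8a points lie closer to the empty-vector points, with the LSD1 points of RLTPR all to the left of them.

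Other genes of the top ratios had varied roles. PGBD5, derived from a piggyBac transposase, had the highest ratio and stood at 1.33, 1.92 and 2.42 CPM in the empty-vector libraries, 1.75, 1.37 and 2.29 in LSD1, 2.17, 2.55 and 1.65 in LSD1+8a and 5.14, 6.76 and 3.95 in SRRM4. It was weakly transcribed: the empty-vector libraries held 17, 26 and 32 counts and the SRRM4 libraries 59, 74 and 43. TMEM198, a membrane protein, stood at 2.902, 4.27 and 3.1 CPM in the empty-vector libraries, 3.104, 4.46 and 3.14 in LSD1, 3.74, 3.03 and 4.54 in LSD1+8a and 7.66, 10.5 and 9.47 in SRRM4. The SRRM4 libraries of both genes were above all others, with a wide spread among themselves.

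MMP24, a membrane-bound metalloproteinase of the nervous system, stood at 6.51, 8.18 and 6.73 CPM in the empty-vector libraries, 7.56, 8.58 and 8.32 in LSD1, 6.89, 6.37 and 7.93 in LSD1+8a and 16.98, 17.1 and 15.1 in SRRM4. ZNF165, a zinc finger protein, stood at 3.53, 4.64 and 4.38 CPM in the empty-vector libraries, 4.22, 4.97 and 3.23 in LSD1, 4.94, 4.46 and 4.62 in LSD1+8a and 9.14, 9.14 and 7.82 in SRRM4. CECR6 (currently TMEM121B) stood at 2.12, 2.36 and 1.59 CPM in the empty-vector libraries, 2.07, 2.74 and 2.21 in LSD1, 2.02, 2.39 and 2.23 in LSD1+8a and 4.01, 4.75 and 3.77 in SRRM4. In all 3 of these genes the SRRM4 libraries lay above the other 9. RLTPR (currently CARMIL2), a regulator of actin capping, stood at 4.0, 3.83 and 3.55 CPM in the empty-vector libraries, 3.02, 2.32 and 2.63 in LSD1, 3.97, 3.35 and 2.89 in LSD1+8a and 7.57, 6.49 and 7.72 in SRRM4. It was the only one of the 101 genes whose LSD1 libraries were all below the empty-vector libraries. The clone-named gene RP11-46A10.5 stood at 2.04, 1.69 and 1.74 CPM in the empty-vector libraries, 2.63, 1.72 and 1.78 in LSD1, 1.2, 1.35 and 2.56 in LSD1+8a and 4.27, 3.47 and 3.22 in SRRM4, with 1 LSD1 and 1 LSD1+8a library well above the remaining ones of those groups.

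ID3, which binds helix-loop-helix transcription factors and keeps them from DNA, stood at 8.55, 8.11 and 9.45 CPM in the empty-vector libraries, 9.71, 8.15 and 9.34 in LSD1, 12.7, 9.003 and 9.001 in LSD1+8a and 20.2, 18.2 and 18.3 in SRRM4. Of its libraries, 1 with LSD1+8a was above the others without SRRM4, and none reached the SRRM4 range. Its relative ID1 went from 2.79 ± 0.715 to 4.48 ± 0.465 CPM, and was not called by edgeR (adjusted p = 0.053). Together with GRHL3 and HOXB9 (transcription factors of epithelium and of body axis patterning), ZNF165 and ZNF385A, they had SRRM4 ratios of 1.56 to 2.17 and LSD1+8a ratios of 1.06 to 1.17.

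Genes of energy and lipid metabolism ranged from weak to high levels, and the creatine kinases were among the highest of the 101 genes. CKMT1B, a mitochondrial creatine kinase, stood at 92.6, 86.8 and 91.9 CPM in the empty-vector libraries, 91.4, 85.1 and 91.8 in LSD1, 94.8, 90.3 and 90.3 in LSD1+8a and 149.6, 157 and 143 in SRRM4. CKMT1A stood at 65.6, 63.9 and 73.5 CPM in the empty-vector libraries, 63.3, 66.8 and 70.97 in LSD1, 68.6, 69.2 and 64.6 in LSD1+8a and 102, 105 and 110.4 in SRRM4. CKMT1A and CKMT1B are near-identical copies, so their counts may be shared and they are not separate evidence. The 3 SRRM4 libraries of each were above all the others. LPIN1, a phosphatidate phosphatase of fat synthesis, was among the genes just inside the ratio threshold and stood at 80.5, 69.6 and 78.7 CPM in the empty-vector libraries, 77.8, 75.5 and 73.1 in LSD1, 85.8, 70.4 and 76.2 in LSD1+8a and 101, 109.8 and 110.3 in SRRM4. FAXDC2, of the fatty acid hydroxylase family, stood at 10.3, 7.81 and 9.9 CPM in the empty-vector libraries, 7.8, 8.15 and 8.66 in LSD1, 10.4, 6.77 and 7.84 in LSD1+8a and 17.7, 22.8 and 17.3 in SRRM4, with its LSD1 libraries in the lower part of the empty-vector range or just under it. ACSL6, a fatty acid CoA ligase, and PLA2G4D, a phospholipase, had SRRM4 ratios of 1.58 and 1.89. The LSD1+8a libraries of ACSL6 were all below the empty-vector libraries, at a mean ratio of 0.715, which the rule's cap allowed.

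Of the other genes with high levels, APLP1, a relative of the amyloid precursor protein, stood at 62.3, 67.8 and 58.2 CPM in the empty-vector libraries, 62.4, 61.2 and 59.8 in LSD1, 59.4, 60.9 and 57.1 in LSD1+8a and 90.3, 88.1 and 87.6 in SRRM4. The clone-named CTD-2328D6.1 stood at 57.8, 54.5 and 55.5 CPM in the empty-vector libraries, 63.4, 83.8 and 72.8 in LSD1, 53.2, 57.7 and 64.8 in LSD1+8a and 86.8, 72.4 and 89.8 in SRRM4. For CTD-2328D6.1 the LSD1 libraries were all above the empty-vector libraries and reached into the SRRM4 range, while APLP1 showed no such overlap.

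The last role group held secreted and surface proteins and signalling enzymes, among them ADAMTS7 and COL12A1 (a matrix protease and a collagen), PROCR (the protein C receptor), TNFRSF12A (the TWEAK receptor), KREMEN2 (a Wnt co-receptor of the Dickkopf proteins), KSR1 (a scaffold of the Ras kinase cascade) and DUSP14 (a phosphatase of MAP kinases). With MMP24, RELL2, TRIP10 and LPXN, these 11 genes had SRRM4 ratios of 1.53 to 2.29 and LSD1+8a ratios of 0.989 to 1.17. The pseudogenes WHAMMP2, CSPG4P10 and TEKT4P2 had ratios of 1.55 to 1.77, and their counts may be shared with their source genes. Other genes named by the rule and left out of these groups were CECR6, CELF6, CRIP2, LACC1, LMO7, PGBD5, PLK3, PPM1D, RAP2B, RLTPR, SERTAD1, SLC31A2, TMEM198 and YPEL3.

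From the p53 list, SERTAD1, which binds the kinase CDK4 and promotes its activity, led with 5.88, 5.38 and 6.2 CPM in the empty-vector libraries, 5.41, 6.52 and 6.54 in LSD1, 7.71, 5.74 and 5.95 in LSD1+8a and 12.5, 13.98 and 13.1 in SRRM4. CDIP1, a p53-induced protein of cell death, was second among the 101 genes by CPM with SRRM4, although 4 of them exceeded it in TPM, and stood at 81.3, 84.4 and 79.9 CPM in the empty-vector libraries, 81.02, 80.8 and 80.2 in LSD1, 82.9, 84.2 and 81.6 in LSD1+8a and 118, 124 and 123 in SRRM4. The SRRM4 libraries of both were above the other 9. PPM1D, the phosphatase that restrains p53, went from 16.6 ± 0.507 to 25.7 ± 1.93 CPM, GADD45A, a stress sensor of growth arrest, from 18.2 ± 1.43 to 27.2 ± 0.982, and PIDD (currently PIDD1), the scaffold that activates caspase-2, from 31.9 ± 0.657 to 47.7 ± 1.49. PLK3, RAP2B, CD82, GRHL3 and FBXW7, the adaptor of a ubiquitin ligase, completed the list's members. Of the 102 measured p53 targets, 42 were called higher with SRRM4 than with the empty vector (4.47% of all genes) and 1 lower (3.22%), with a median log2 fold change of 0.17, against -0.001 over all genes. Of those 102, 13 are on the list of removed names, such as CDKN1A and SERPINB5, and the 10 described here are what remained under the rule.

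From the list of REST targets and neuronal genes, 48 of 130 were measured, and 21 were called higher with SRRM4 (4.47% of all genes) and 0 lower (3.22%), with a median log2 fold change of 0.12, against -0.001 over all genes. STX1A, CPLX1, TUBB3 and GDAP1 are described here, and 11 of the measured genes, such as STMN3 and CELSR3, are among the removed names. Further lists gave 1 gene each, such as GBP2 among interferon-stimulated genes, LIF among NF-kB targets, DUSP5 among AP-1 and immediate early genes and DNAJB4 among heat shock genes. Lists of the unfolded protein response, NRF2, metallothioneins, hypoxia, androgen-responsive genes, LSD1-related complexes and mitosis gave 0. The measured genes of each list that gave 0 make up only 0.0538 to 0.354% of the table. For the lists of GBP2, LIF, DUSP5 and DNAJB4 the share is 0.192 to 0.662%. With lists this small, a count of 0 or 1 cannot tell the chosen genes from the whole table. The SRRM4 ratios of GBP2, LIF, DUSP5 and DNAJB4 were 1.44, 1.45, 1.53 and 1.41 in that order. Of the 86 measured interferon genes, 43 were called higher with SRRM4 (4.47% of all genes) and 28 with LSD1+8a (0.285% of all genes), and the cap on LSD1+8a applied to them too.

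**Figure D3:**
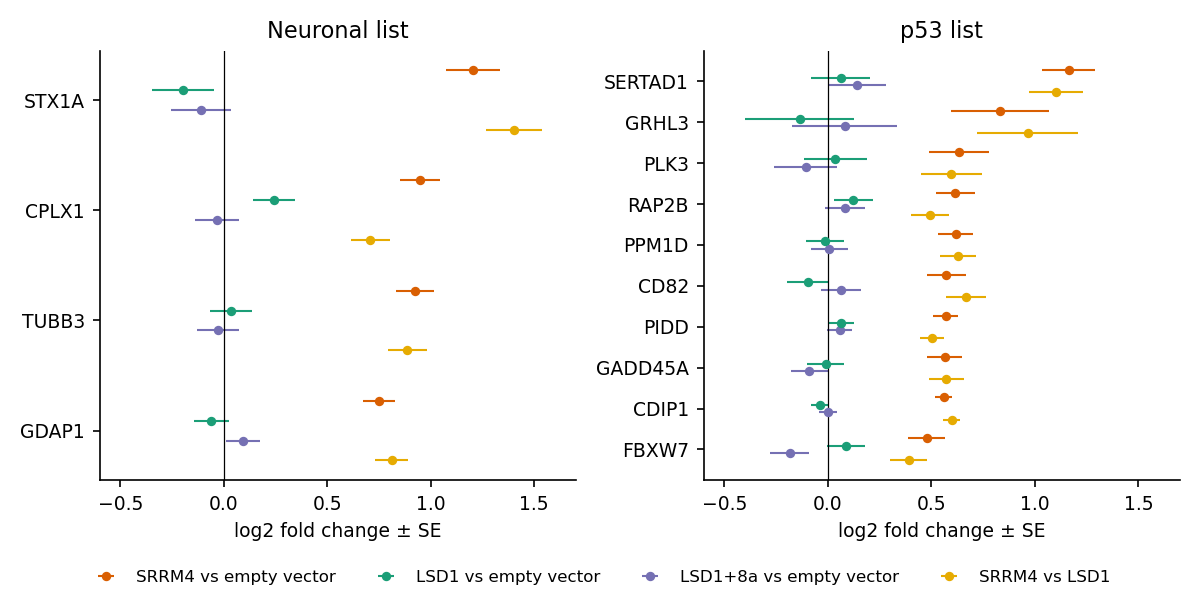
Log2 fold change from edgeR (3 libraries per group) for 4 genes of the neuronal list and the 10 of the p53 list. Bars are ± SE, derived from the F statistic of the test, and each comparison has its own colour. The fold changes of SRRM4 against the empty vector and against LSD1 lie to the right of 0, and those of LSD1 and LSD1+8a against the empty vector lie around 0.

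The LSD1 libraries took no part in the choice of the genes, although the empty-vector libraries did. Of the 101 genes, 0 were called by edgeR in LSD1 against the empty vector, where 0.0462% of all genes were called higher and 0.0538% lower. The smallest adjusted p of edgeR was 0.657, and at an unadjusted p under 0.05 the test gave 5 genes higher and 3 lower, against 3.09% and 2.8% of all genes. limma-voom called 0 as well, and DESeq2 gave no adjusted p for any of them. The median log2 fold change of the 101 genes was 0.04, against 0.002 for all genes, and single genes ranged from -0.53 to 0.50. In mean CPM ratio the median was 1.04, the lowest 0.700 (RLTPR) and the highest 1.43 (RP5-1021I20.4), with 8 genes at 1.2 or above and 1 at 1.4 or above. In 10 genes all LSD1 libraries were above all empty-vector libraries, which was so for 8.08% of all genes, and in 1 gene all were below, against 4.05%. The choice favoured genes with low empty-vector values, and this was not corrected for.

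FGF13, an intracellular regulator of sodium channels, is named here after its values were seen, as 1 of these 10. It stood at 2.98, 3.61 and 3.25 CPM in the empty-vector libraries, 4.3, 4.29 and 4.58 in LSD1, 3.29, 4.22 and 3.06 in LSD1+8a and 5.4, 4.75 and 4.69 in SRRM4. Its SRRM4 libraries were above its LSD1 libraries, and its LSD1 libraries above those of the empty vector. The LSD1 ratio was 1.34 and the SRRM4 ratio 1.51. The adjusted p of FGF13 for LSD1 against the empty vector was 0.78 by edgeR.

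LSD1+8a against the empty vector was capped at a ratio of 1.2 by the rule, so it is a description. The mean ratios ran from 0.575 to 1.18 with a median of 1.03, and edgeR called 0 of the 101 genes (0.285% of all genes were called higher and 0.0615% lower). Without adjustment, a p under 0.05 was reached in edgeR by 2 genes as higher (3.59% of all genes) and 2 as lower (3.23%). In 7 genes all LSD1+8a libraries were above the empty-vector libraries (8.5% of all genes) and in 2 genes all below (3.68%). The lowest ratio was that of RP11-603J24.9, at 0, 4.46 and 3.47 CPM with LSD1+8a and 6.12, 4.64 and 3.02 with the empty vector, where the value listed at 0 came from 1 library. ABCA1, the cholesterol exporter and named after its values were seen, had 1.27, 1.99 and 1.24 CPM with LSD1+8a against 2.27, 1.84 and 2.49 with the empty vector and 3.4, 3.29 and 2.94 with SRRM4.

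**Figure D4:**
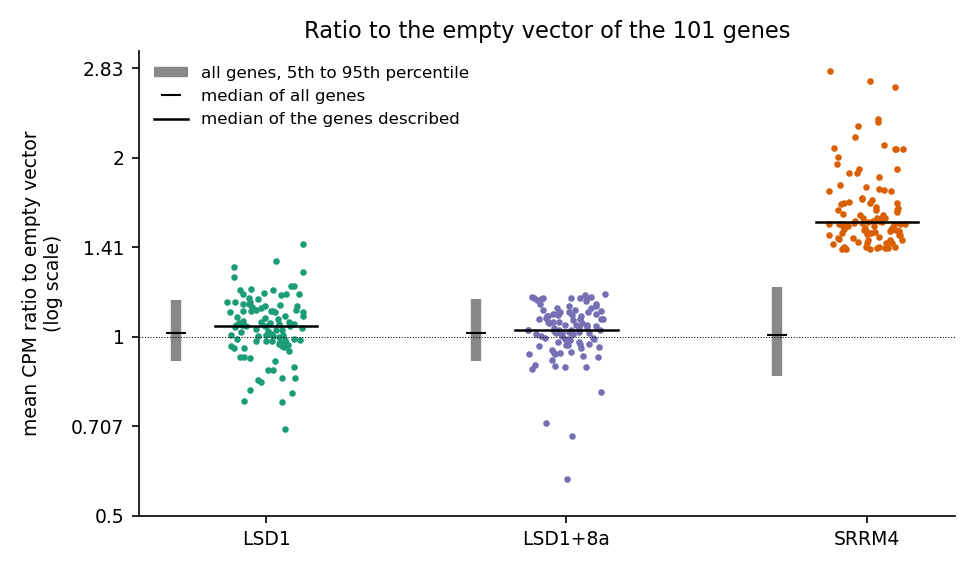
Mean CPM ratio to the empty vector (log scale) of the 101 genes for each transfection, 1 point per gene, with the median as a black line and, in grey, the 5th to 95th percentile over all genes with a short bar at their median. Medians of the 101 genes were 1.04 for LSD1, 1.03 for LSD1+8a and 1.56 for SRRM4, and the SRRM4 points start at the 1.4 set by the rule.

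SRRM4 against LSD1 sets the genes against transfected libraries that the choice had not used, while the SRRM4 libraries were used and the count is partly fixed by them. Of the 101 genes, 71 were called higher by edgeR, where 4.38% of all genes were, and 0 lower, where 2.67% were. At an unadjusted p under 0.05 edgeR gave 90 higher (11% of all genes) and 0 lower (9.98%). The median log2 fold change was 0.60, against -0.004 for all genes, and the range was 0.08 to 1.55. In 89 genes all SRRM4 libraries were above all LSD1 libraries (13% of all genes), and in 0 genes all were below (13%). The 12 exceptions were NOS1AP, RP11-603J24.9, CSPG4P10, CELF6, LACC1, RP11-574K11.29, KANK3, RP5-1021I20.4, CTD-2328D6.1, AP003419.11, SMPD3 and NRG4.

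Level and call went together. Of the 49 genes at 10 CPM or more with SRRM4, 46 were called against LSD1, and of the 52 below 10 CPM 25 were. The 3 exceptions at the higher levels were CSPG4P10, AP003419.11 and CTD-2328D6.1. CSPG4P10 had 16.6, 9.09 and 0 CPM with LSD1 and 15.6, 17.4 and 18.4 with SRRM4, and its value listed at 0 was in 1 library. The log2 fold changes of the 30 genes not called had a median of 0.46, against 0.67 for the called genes. In the same split, 47 of 49 and 35 of 52 genes were called against the empty vector (4.47% of all genes at any level were called higher).

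**Figure D5:**
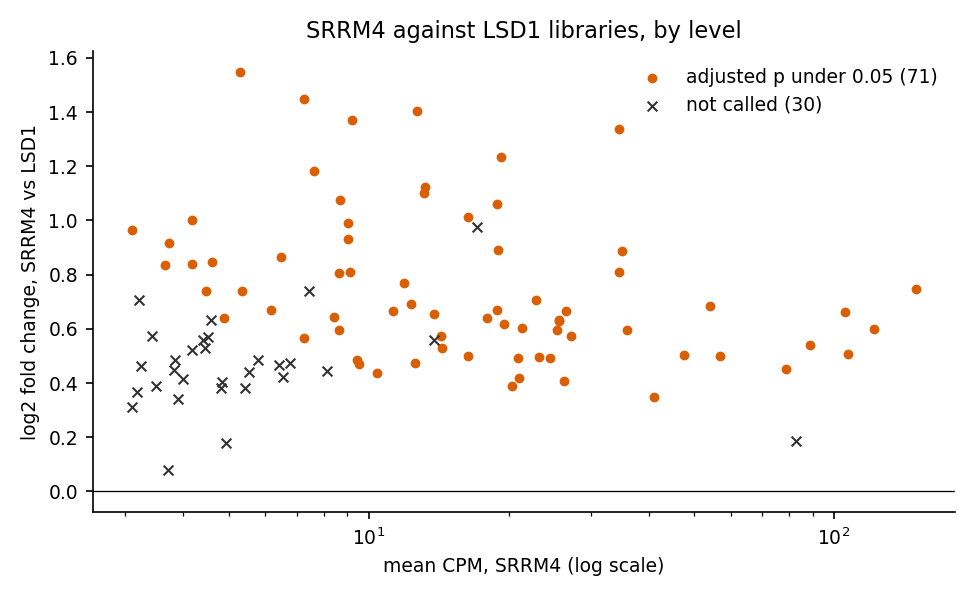
Log2 fold change of SRRM4 against LSD1 for each of the 101 genes against its mean CPM with SRRM4 (log scale), with dots for the 71 genes called at an adjusted p under 0.05 and crosses for the 30 not called. Most crosses lie under 10 CPM, and all points lie above 0.

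TPM values, which take transcript length into account, gave a median ratio of 1.55 for the 101 genes, with 86 at 1.4 or above and 5 under 1.2. For 73 genes (72.3%) TPM and CPM ratios lay within 10% of each other, against 86.7% of all genes. KSR1, with a CPM ratio of 1.603, had 1.08, 2.43 and 1.64 TPM with the empty vector and 1.68, 1.22 and 1.58 TPM with SRRM4, a ratio of 0.87. NMNAT2 had 4.05, 2.88 and 3.62 TPM and 3.35, 2.77 and 5.45 TPM, a ratio of 1.1 against 1.58 in CPM. COL12A1 had a TPM ratio of 1.1 and a CPM ratio of 1.77, and NRG4 1.03 and 1.41. STX1A had 6.46 ± 1.13 TPM (SD, n = 3) with the empty vector and 11.8 ± 0.207 with SRRM4, a ratio of 1.82 against 2.33 in CPM. In TPM the SRRM4 libraries of STX1A were still above those of the empty vector, while those of KSR1 and NMNAT2 overlapped them. Which isoforms made up the counts was not tested.

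Close to the ratio threshold, FBXW7 lay just inside with 15.7, 12.5 and 15.4 CPM with the empty vector and 21.6, 19.01 and 20.5 with SRRM4 and 12.9, 12.5 and 13.3 with LSD1+8a. NRG4, a ligand of the ErbB receptors, had 3.06, 2.58 and 2.57 CPM with the empty vector and 3.66, 4.57 and 3.31 with SRRM4, with ranges close to each other. Just outside were LA16c-431H6.6 with 1.88, 1.84 and 2.34 CPM with the empty vector and 2.52, 2.83 and 3.13 with SRRM4, NFKBIZ with 5.33, 3.91 and 4.53 CPM with the empty vector and 5.57, 7.04 and 6.62 with SRRM4 and CYP2C19 with 2.27, 3.09 and 2.72 CPM with the empty vector and 3.13, 3.93 and 4.23 with SRRM4. Those inside had ratios of 1.403 to 1.41, and a further 39 genes met all other criteria within 0.05 below the threshold.

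Features that the rule did not use are given as descriptions. Their median transcript had 1474 bases, against 1022 for all genes, and a GC content of 56.9%, against 49.8% (92 of the 101 genes and 93.1% of all had a value). Protein-coding genes were 86 of the 101, close to their 87.5% share of all genes. On the chromosomes PROCR and MMP24 were the only pair with no other measured gene starting between them. The part of GC content and length in the SRRM4 ratios was not tested.

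Among facts of the whole series, KDM1A stood at 93.0 to 94.2 CPM with the empty vector, 514 to 591 in LSD1, 1992 to 2607 in LSD1+8a and 91.5 to 100.5 in SRRM4 libraries, so KDM1A was above the empty vector in every library of both LSD1 groups and higher with LSD1+8a than with LSD1. These are totals of the gene, and the isoform of each group rests on its label. The symbol SRRM4 was not among the 13001 genes analysed, so its level could not be checked here and the SRRM4 libraries rest on their labels. All 10 luminal prostate markers checked were present, such as KLK3 at 2626 to 3359 CPM. Of the markers of other cells, COL1A1 (20.2 to 29.3 CPM) and VWF (18.2 to 24.7 CPM) were the highest. The endothelial markers PECAM1 and CDH5 and the fibroblast markers COL1A2, PDGFRB, DCN and LUM were not among the genes analysed. Nor were PTPRC, CD3E, CD14, MS4A1, NEFM, KRT5 and TP63. The fibroblast marker COL3A1 stood at 2.04 to 3.48 CPM. CD68 (leukocytes) stood at 2.79 to 6.85 CPM, NEFL (embryonic kidney cells) at 4.2 to 6.53 and KRT14 (basal epithelium) at 2.14 to 3.07. COL1A1 or VWF alone does not show another cell type, and whether other cells were present was not tested. COL1A1 overlapped between SRRM4 and the empty vector, and VWF was lower in every SRRM4 library than in any empty-vector library, the opposite direction to the 101 genes. Fewer cells of a type and less RNA per cell cannot be told apart in these bulk samples.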

How the data were processed

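RNA-seq of 12 libraries of transfected LNCaP cells was analysed from 3 deposited tables of 13001 genes. Whole-number counts per gene were deposited by the authors, per the file headers. TPM values were deposited in a table of their own, per the file headers. A comparison table held the authors' log2 fold changes and p-values, per the file headers. STAR 2.5.3a, RSEM 1.2.31 and hg19 appear, without roles, in the submitters' processing notes.

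Genes were chosen on CPM of the counts as the report states. The choice of the genes and lists was made with earlier results of these data known, and role groups were formed after their values were seen. The members and lists are therefore no independent support. An edgeR model (version 4.0.16, under R 4.3.3) of all 4 groups, with TMM factors and the robust quasi-likelihood test, was fitted to the counts, with p-values adjusted by Benjamini-Hochberg over all genes and called under 0.05. The filter removed 0 genes, and the smallest total of a gene was 168 counts. Fold changes are given with an SE and means with their SD. That SE was derived as the absolute log2 fold change divided by the square root of the test's F statistic. Among members with official symbols, the 60 with the highest ratio were named, and members of the lists, except for items that are not reported here. Values in every library were given for the 16 highest ratios, the 6 highest SRRM4 levels and the 3 genes on each side of the ratio threshold. Promoters came from RefSeq (GRCh38.p14), and transcript length and GC content from GENCODE on GRCh38.

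On simulated data of 13001 genes, edgeR recovered 76% of genes changed 1.4-fold for SRRM4 against the empty vector, 86% for LSD1, 84% for LSD1+8a and 74% for SRRM4 against LSD1. False calls made up 4.68, 7.07, 8.38 and 4.17% of calls. These rates were not split by level. The genes chosen by the rule had an empty-vector median of 5.82 CPM, against 30.6 CPM over all genes. The rates therefore do not apply to the chosen genes as such. What share of changes edgeR would recover at their weaker levels, including for LSD1 against the empty vector, was not tested. Counts of replicate libraries differed by more than sampling noise (chi-square per degree of freedom 1.44 to 2.88). Alternatives were RLE and upper-quartile factors, no filter and a strict filter, DESeq2 1.42.0, limma-voom and limma-trend (limma 3.58.1) on log2 of TPM plus 1 or 0.1, a replicate block, a fit of 2 groups, other thresholds of the rule, and leaving out each library.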

Additional observations from a re-analysis of the deposited data

How the results depend on the processing

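The rule gave 194 genes at a ratio of at least 1.3, against 101. It gave 73 at 1.5, 78 with the LSD1+8a ratio under 1.1, 74 with a level of 5 CPM, 97 with TMM library sizes (95 shared) and 118 on TPM (72 shared), and 99 to 128 when a library was left out (82 to 97 shared). With limma-trend on TPM fewer of the 101 genes were called: 50 with a pseudocount of 1 and 49 with 0.1 for SRRM4 against the empty vector (82 in edgeR on counts), and 32 with either for SRRM4 against LSD1 (71). Over all genes, those called higher fell from 581 to 254 and 251, and from 569 to 128 and 123. The cause was not tested. DESeq2 called 58 and 57, and over all genes 328 and 325 higher. Leaving out each library gave 68 to 84 and 60 to 72 calls, and over all genes 393 to 636 and 329 to 616 higher. For LSD1 and for LSD1+8a against the empty vector 0 of the 101 genes were called in every alternative that gave an adjusted p. Upper-quartile factors changed the split over all genes for SRRM4 against the empty vector from 581 higher and 418 lower to 497 and 561, while 81 of the 101 genes were called higher. Of the 101 genes, 43 were called against the empty vector in every setting and 31 against LSD1, while 12 and 22 were called in none. The matching shares over all genes were not computed.

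Of 33 genes followed by name, 32 were called against the empty vector, and 8 of these lost the call in at least 1 alternative (among them CEP85L, RP11-46A10.5, RLTPR, GRHL3, PLK3, CD82 and CTD-2328D6.1). Against LSD1, 9 of 30 lost it (CEP85L, CECR6, RP11-46A10.5, GRHL3, PLK3, RAP2B, CD82, PIDD and LPIN1), and 0 reversed. Deviations of libraries with the same replicate number had correlations of -0.213 to 0.095 across the groups compared, and those with different numbers -0.174 to 0.226. Between LSD1 and LSD1+8a the same numbers gave 0.022 to 0.083 and different numbers -0.078 to -0.002. Between the empty vector and LSD1 they gave -0.173 to -0.120 and 0.016 to 0.115. Not every library correlated best with its own number, and these small correlations do not show whether the numbers pair libraries. With a replicate block 80 genes were called against the empty vector and 69 against LSD1, and 0 in the other comparisons. Over all genes the block gave 518 and 512 higher, and 6 with LSD1 and 36 with LSD1+8a against the empty vector. Under 10 CPM 35 of 52 genes were called against the empty vector, and from 10 CPM 47 of 49. The share of all genes called higher, 4.47%, was not split by level. The median log2 fold change of genes not called was 0.58, against 0.65 for those called, and the part of depth in this was not tested.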
